A study of Mus musculus with 18 samples.

Results

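Glycogen is made and broken down by a small set of enzymes, and 9 genes of this set were followed through polyadenylated RNA sequencing of mouse brown adipocytes: Ugp2, Gyg, Gys1, Gys2, Gbe1, Pygb, Pygm, Pygl and Ppp1r3c. They were picked by gene symbol from the 54347 genes of the count table, and no measured value enters that choice, although the set was proposed with earlier results of these data in view. All 9 symbols were found once in the table. The cells were wt1-SAM brown adipocytes, 1 immortalised brown preadipocyte line that stably carries the CRISPR activation machinery SAM and was differentiated in culture, so every group shares this machinery and this single origin. On day 4 of differentiation the cells were reverse transfected with an LNA gapmer, a short antisense oligonucleotide with locked nucleic acid bases that directs cleavage of its target RNA. The gapmer was either ctrlA, which targets no transcript, or LNA1 or LNA2, which both target the long noncoding RNA Gm15551. Cells of each LNA were left unstimulated or were given 1 µM isoproterenol, a β-adrenergic agonist, for 24 h, and RNA was taken on day 7. The 6 groups held 3 libraries each, with the replicate numbers 2, 3 and 4, or 18 libraries in all. The sources do not say whether the numbers stand for separate cultures or passages, so p-values measure the spread between these libraries, which may be technical in part.

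Glycogen synthesis starts from UDP-glucose, which UDP-glucose pyrophosphorylase (Ugp2) makes from glucose 1-phosphate. Glycogenin (Gyg) attaches the first glucose residues to itself, glycogen synthase (the widely expressed Gys1 or the liver form Gys2) lengthens the chains, and the branching enzyme (Gbe1) adds branch points. Glycogen phosphorylase exists as a brain (Pygb), a muscle (Pygm) and a liver (Pygl) form and releases glucose 1-phosphate from chain ends. Ppp1r3c, also called protein targeting to glycogen, brings protein phosphatase 1 to the glycogen particle, where the phosphatase activates synthase and inactivates phosphorylase. β-adrenergic signalling acts on the same enzymes in the opposite sense, through protein kinase A and phosphorylase kinase, and this control runs over phosphorylation of the proteins, which RNA levels do not show.

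Library totals ranged from 9167560 to 19723021 counts, and 3 counts, taken as the floor of detection, were worth 0.17 to 0.306 CPM, the usual depth-scaled count, here with TMM scaling factors applied. The 6 libraries of replicate number 2 stood apart: mitochondrial transcripts took 7.86 to 9.79% of their counts against 2.56 to 4.97% in the others, and 2.88 to 14.29% of counts fell on CT010467.1, a gene of ribosomal RNA, against 0.28 to 1.04%. Each result is therefore also given without these libraries, or with the replicate number as a block, where this changes a call. All 8 brown adipocyte markers examined reached a mean of at least 1 CPM. The stimulation was visible in Ucp1, which went from 1.12 ± 0.345 to 12.8 ± 2.25 CPM (SD, n = 9 each). Gm15551 itself was close to the floor, with 0.492 ± 0.267 CPM with ctrlA, 0.341 ± 0.346 with LNA1 and 0.367 ± 0.373 with LNA2 (SD, n = 6 each), so that these counts give little information on the depth of the knockdown.

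The sequences of the 3 LNAs, written 5′ to 3′, are shown because they are the agents compared, and because any stretch they share with a glycogen gene would bear on how its values are read:
ctrlA: aacacgtctatacgc
LNA1: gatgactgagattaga
LNA2: aagtagcacggcgttg
The longest stretch of perfect complementarity to any annotated transcript of the 9 genes was 8 bases for ctrlA (in Gbe1), 9 bases for LNA1 (in Gys1) and 9 bases for LNA2 (in Gys1 and Pygl). Stretches at least as long occurred in 5.1%, 6.6% and 1.9% of 55450 annotated genes, respectively. None of the 9 genes thus held a full match to a 15- or 16-base LNA. Among the further pathway genes named later, Epm2a held a longer stretch, 12 bases complementary to LNA1, and 0.1% of genes held one at least as long.

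A second set of sequences shows how far the isoforms can be told apart by short reads. The coding sequences of Pygb and Pygm (GENCODE M21, GRCm38) were 77.4% identical, with an identical run of 62 bases, and 38 of the 31-base words in the transcripts of each occurred in the other, which is 0.8% of the words of Pygb and 1.18% of those of Pygm. Bases 865 to 914 of both coding sequences, counted from the A of the start codon, are the same, and Pygl differs from them at the 2 capital positions:
Pygb: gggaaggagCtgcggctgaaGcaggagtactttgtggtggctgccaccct
Pygl: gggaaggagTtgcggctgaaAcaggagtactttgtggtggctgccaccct
Gys1 and Gys2 were further apart, at 68.2% identity, and their most similar 50 bases (1096 to 1145 of both coding sequences) still differ at the 5 capital positions:
Gys1: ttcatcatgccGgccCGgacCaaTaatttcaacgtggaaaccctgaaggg
Gys2: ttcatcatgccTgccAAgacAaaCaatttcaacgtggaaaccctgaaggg
Gys2 held 0 words of 31 bases in common with any other gene, and so did Gbe1, Gyg, Ppp1r3c and Ugp2. The low counts of Pygm may carry some fragments of the far more abundant Pygb, since fragments from the shared stretch are divided by estimation.

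The brown adipocytes expressed the set in 2 tiers. Per kilobase of exon, Gys1 had the highest mean level at 74.9 CPM per kb over the 18 libraries, followed by Gbe1 at 44.7, Ugp2 at 35.6, Pygb at 26.7 and Gyg at 22 CPM per kb. Gys2 at 1.12, Pygm at 1.02 and Ppp1r3c at 0.826 CPM per kb formed the lower tier, and Pygl was at or under the floor in 16 of 18 libraries. Within each tier the library ranges of neighbours in this order met, so the order between neighbours is not resolved, while the tiers did not meet. Of the synthase counts, Gys1 held 98.2 to 99.6% in every library and the liver form Gys2 the remainder. Of the phosphorylase counts, Pygb held 93.6 to 98.9%, Pygm 1.08 to 6.34% and Pygl 0 to 0.528%. At the RNA level the widely expressed synthase and the brain-type phosphorylase thus made up nearly all of their families, with small shares of the liver-type synthase and the muscle-type phosphorylase.

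**Figure D1:**
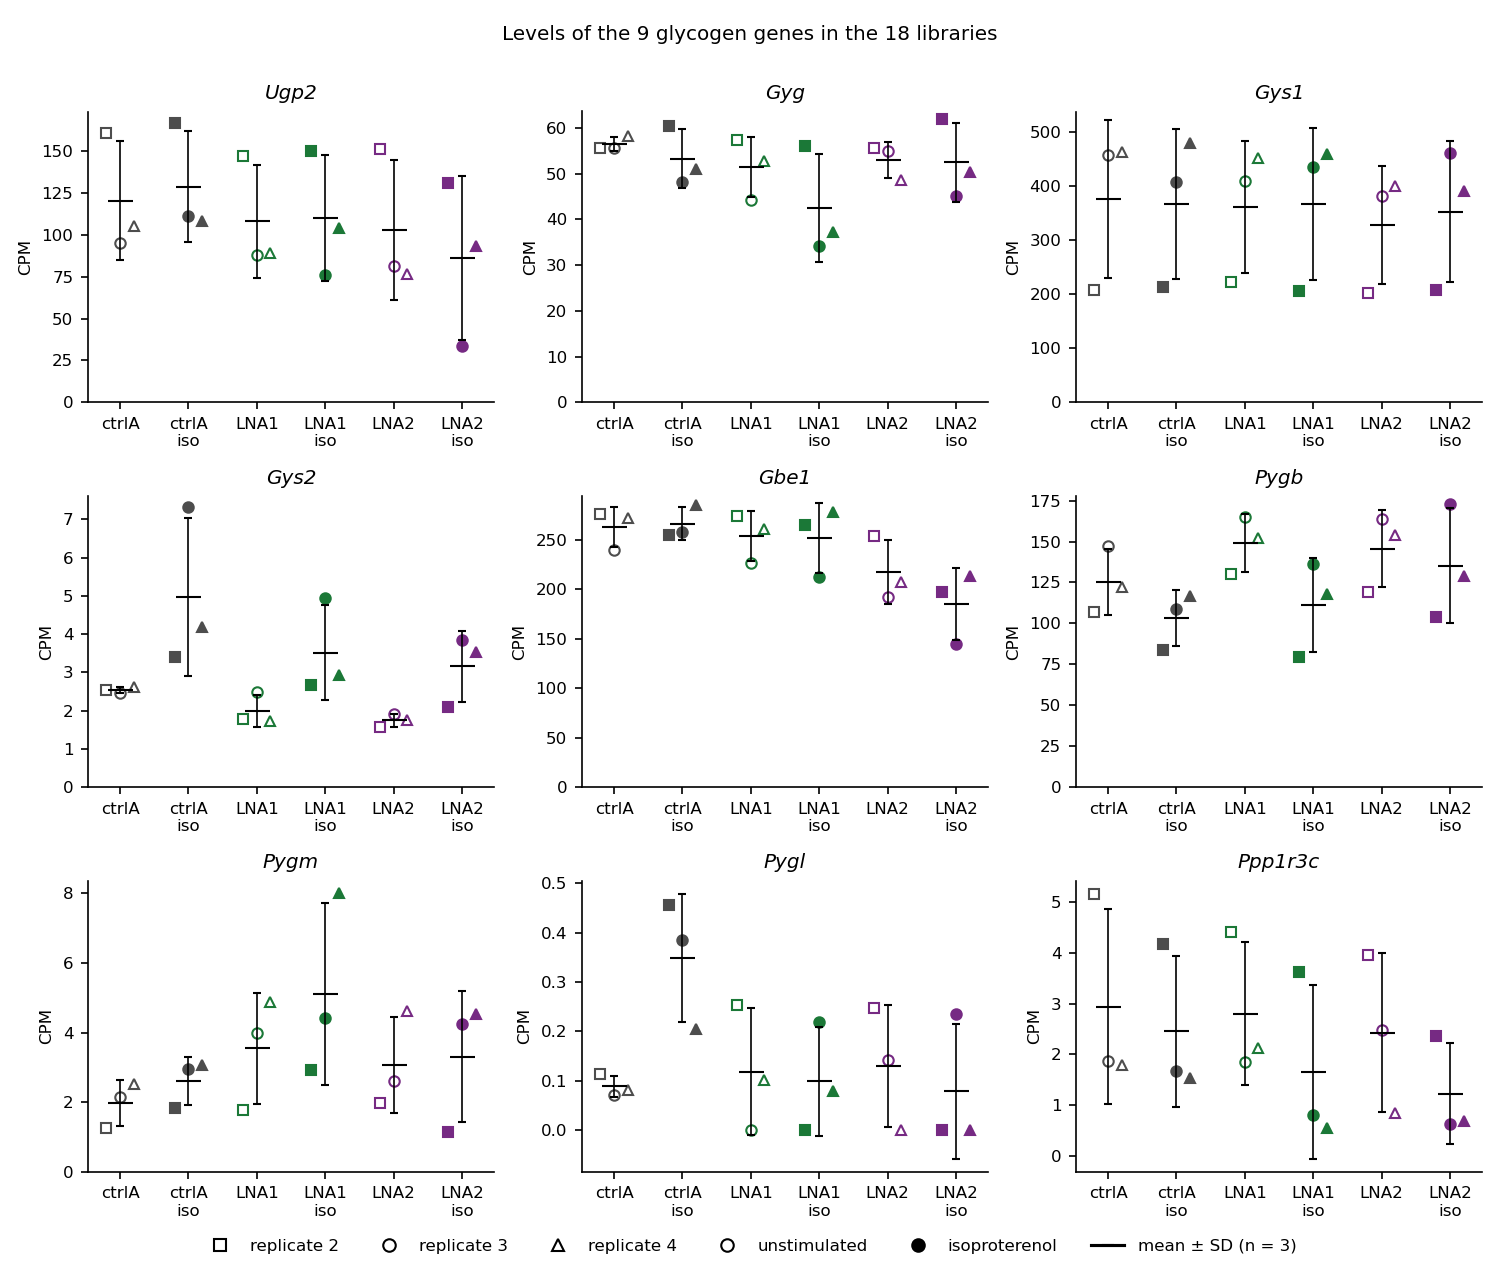
Level of each of the 9 genes in CPM (linear axis, own scale per gene) in the 6 groups of LNA and stimulation. Symbols are single libraries by replicate number, open without and filled with isoproterenol, and bars give mean ± SD (n = 3). Gys2 is higher in the stimulated libraries of each LNA, Gys1 and Ugp2 separate by replicate number, and Pygl stays at 0 to 0.455 CPM.

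The first comparison asked how β-adrenergic stimulation changed these genes. Isoproterenol raised the liver-type synthase Gys2, and this was the only one of the 8 members tested that was called over all LNAs (adjusted p under 0.05 and an absolute log2 fold change above 0.5 in edgeR's quasi-likelihood test, Benjamini-Hochberg over 14949 genes). The background was 479 called genes, or 3.2% of those tested, of which 302 (2.02%) were higher and 177 (1.18%) lower. A single call among 8 members is a small number to set beside such a background. With the replicate number as a block, which models the shared deviation of same-numbered libraries, a further member, Ppp1r3c, was called lower, against a background of 7% of genes called and 3.13% called lower. The members' median log2 fold change was −0.06 and that of all genes was 0, so the set did not move in 1 direction.

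Gys2 (ENSMUSG00000030244.7, chr6:142422613-142473109, minus strand, protein coding) was measured at 17 to 114 counts per library. With ctrlA it stood at 2.55, 2.45 and 2.61 CPM in the unstimulated libraries of replicates 2, 3 and 4, and at 3.41, 7.32 and 4.18 CPM after isoproterenol. With LNA1 the unstimulated values were 1.78, 2.48 and 1.73 CPM and the stimulated ones 2.66, 4.94 and 2.93 CPM. With LNA2 they were 1.57, 1.91 and 1.75 CPM without and 2.09, 3.85 and 3.53 CPM with the agonist. Every stimulated library exceeded all unstimulated libraries of its own LNA, and the stimulated library of replicate 3 was the highest in each. Over the 9 libraries of each state the level was 2.09 ± 0.42 CPM unstimulated and 3.88 ± 1.54 CPM stimulated (SD). Across LNAs the ranges overlapped, because stimulated LNA2 replicate 2, at 2.09 CPM, lay below the 3 unstimulated ctrlA libraries. The log2 fold change was 0.88 ± 0.19 (SE, 95% confidence interval 0.48 to 1.28, edgeR adjusted p = 0.0117), a 1.84-fold rise seen in 9 of 9 pairs of libraries with the same LNA and number.

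Taken by LNA, the log2 fold change of Gys2 was 0.98 with ctrlA, 0.81 with LNA1 and 0.86 with LNA2, and none of these passed the threshold on its own in the edgeR fit (adjusted p = 0.381, 0.537 and 0.626). With the replicate block it was called with ctrlA (0.91, adjusted p = 0.0187) and with LNA2 (0.84, adjusted p = 0.0396), while LNA1 stayed just outside (0.79, adjusted p = 0.0509). Both of these calls were lost when the libraries of replicate 2 were left out of the blocked fit, at 1.15 (adjusted p = 0.0677) with ctrlA and 1.01 (adjusted p = 0.112) with LNA2. In these comparisons within 1 LNA, 0 of 8 members were called without the block by edgeR or by DESeq2, and 1 member had an unadjusted edgeR p under 0.05 in each. The share of all genes called was 0.488% with ctrlA, 0.702% with LNA1 and 0.395% with LNA2, and with the block 4.03%, 5.04% and 4.25%. Without the 6 libraries of replicate 2 the averaged rise of Gys2 was 1.03 (adjusted p = 0.00702). Leaving out any 1 library kept the call, with values from 0.75 without stimulated ctrlA replicate 3 to 0.96 without stimulated LNA2 replicate 2. Within 1 LNA, single libraries weighed more. Without the stimulated replicate 3 of the same LNA, the rise was 0.58 with ctrlA, 0.49 with LNA1 and 0.69 with LNA2. The highest values were 1.18, 1.01 and 1.08.

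**Figure D2:**
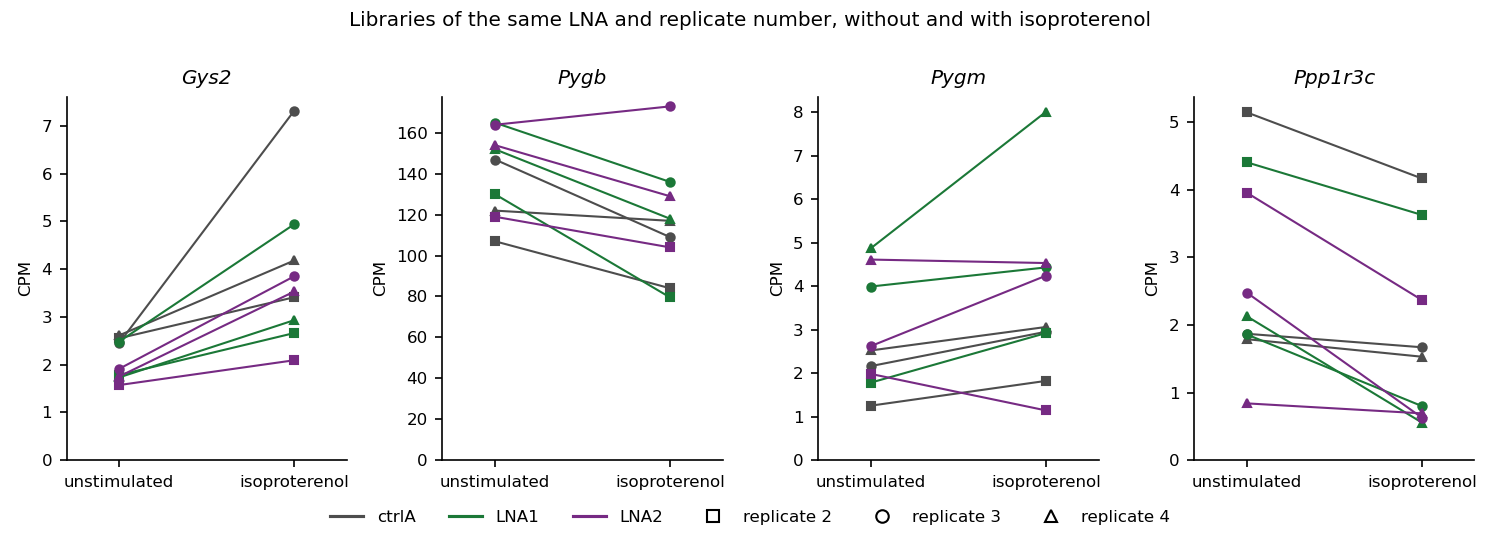
CPM of Gys2, Pygb, Pygm and Ppp1r3c in libraries of the same LNA (colour) and replicate number (symbol), joined by a line from the unstimulated to the isoproterenol library. All 9 lines rise for Gys2 and all 9 fall for Ppp1r3c, while 8 of 9 fall for Pygb and 7 of 9 rise for Pygm.

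The widely expressed synthase Gys1 (ENSMUSG00000003865.16, chr7:45434844-45456619, plus strand) was not called. Its 9 unstimulated libraries averaged 355 ± 112 CPM and the 9 stimulated ones 362 ± 118 CPM (SD), a log2 difference of 0.03 with a 95% confidence interval of −0.5 to 0.57. The interval is wide because the libraries of replicate 2 lay at 203 to 222 CPM and those of replicates 3 and 4 at 382 to 480 CPM. With the replicate block the difference was 0.02 ± 0.05 (SE). Exons of Gys1 overlap those of Ruvbl2 on the opposite strand over 310 bases, and the strand setting of the quantification was not stated, so a part of its counts may belong to that gene.

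The regulatory subunit Ppp1r3c (ENSMUSG00000067279.3, chr19:36731731-36736653, minus strand) was lower after isoproterenol in 9 of 9 pairs. With ctrlA the 3 pairs went from 5.15 to 4.17, from 1.87 to 1.67 and from 1.79 to 1.53 CPM in replicates 2, 3 and 4. With LNA1 they went from 4.41 to 3.63, from 1.86 to 0.799 and from 2.13 to 0.555 CPM. With LNA2 they went from 3.96 to 2.37, from 2.48 to 0.628 and from 0.839 to 0.691 CPM. Replicate 2 stood highest in every group, at 2.37 to 5.15 CPM against 0.555 to 2.48 CPM elsewhere, and the stimulated and unstimulated ranges overlapped. The gene had only 7 to 91 counts per library. Without the block the log2 fold change was −0.68 ± 0.44 (SE, edgeR adjusted p = 0.579), which does not pass, and with it −0.74 ± 0.19 (adjusted p = 0.00768), which does. Without the libraries of replicate 2 it was −1.02 (adjusted p = 0.039), and single libraries moved it from −0.44 without unstimulated ctrlA replicate 2 to −1.09 without stimulated LNA1 replicate 2.

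Among the phosphorylases, the brain form Pygb (ENSMUSG00000033059.7, chr2:150786735-150831758, plus strand) stood at 140 ± 20.9 CPM without and at 117 ± 28.3 CPM with isoproterenol (SD, n = 9 each). It was lower with the agonist in 8 of 9 pairs, the exception being LNA2 replicate 3 at 164 and 173 CPM. Its log2 difference was −0.27 ± 0.13 (SE, edgeR adjusted p = 0.373), and with the replicate block −0.28 ± 0.05 (adjusted p = 0.000967), which passes the p threshold and stays under the fold limit. The muscle form Pygm (ENSMUSG00000032648.14, chr19:6384399-6398459, plus strand) had 2.86 ± 1.3 CPM without and 3.68 ± 1.99 CPM with the agonist, higher in 7 of 9 pairs, with a log2 difference of 0.35 ± 0.3 (SE, adjusted p = 0.726). The liver form Pygl (ENSMUSG00000021069.17, chr12:70190811-70231488, minus strand) did not pass the filter on low counts. It had 0 to 6 counts per library, at or under the floor in 16 of 18 libraries, and 21 counts in the 9 stimulated against 13 in the 9 unstimulated libraries. An exact two-sided permutation test of its CPM within LNAs gave p = 0.332 (n = 9 each, smallest possible 0.00025, adjusted p = 0.332 over 3 comparisons). This average joins unlike values: with ctrlA the counts of replicates 2, 3 and 4 were 2, 1 and 1 unstimulated and 6, 6 and 2 stimulated, with CPM ranges that did not overlap, while LNA1 had 4 counts in each state and LNA2 had 5 without and 3 with the agonist. The only 2 libraries above the floor were stimulated ctrlA libraries, and the averaged change was not detectable at this depth.

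The other 3 members were not called in either fit. Ugp2 (ENSMUSG00000001891.16, chr11:21321138-21371201, minus strand) had 110 ± 33 CPM unstimulated and 108 ± 39.6 CPM stimulated, with a log2 difference of −0.04 and a 95% confidence interval of −0.57 to 0.48. Gyg (ENSMUSG00000019528.18, chr3:20122084-20155317, minus strand) had 53.6 ± 4.53 and 49.3 ± 9.56 CPM, with −0.13 (−0.35 to 0.1). Gbe1 (ENSMUSG00000022707.16, chr16:70313949-70569716, plus strand) had 245 ± 30.8 and 234 ± 46 CPM, with −0.08 (−0.28 to 0.13). Without the block, the intervals of Gyg and Gbe1 exclude changes of 0.5 or more on the log2 scale, while those of Ugp2 and Gys1 include them. With the replicate block the differences were −0.06 ± 0.12 (SE) for Ugp2 and 0.02 ± 0.05 for Gys1. These standard errors are small beside 0.5, so the width of both intervals belongs to the fit without the block. In bulk RNA, fewer cells of a type and less RNA per cell cannot be told apart, and the summed brown adipocyte markers ranged from 11600 to 22500 CPM in the unstimulated and from 8460 to 16900 CPM in the stimulated libraries. Most of that sum is Fabp4, whose mean was 13600 CPM unstimulated and lower with the agonist. The 8 markers did not share 1 direction: Adipoq (615 and 378 CPM) and Plin1 (689 and 580 CPM) were also lower in the mean with the agonist, Cidea (7.33 and 17.7 CPM), Ucp1, Ppargc1a (52.2 and 77.5 CPM) and Elovl3 (253 and 325 CPM) were higher, and Pparg had 154 CPM in both. Summed preadipocyte markers ranged from 241 to 529 CPM unstimulated and from 319 to 546 CPM stimulated. Of 5 macrophage markers, Cd68 alone reached a mean of 1 CPM, and their sum was 8.21 to 28.5 CPM unstimulated and 12.2 to 44.2 CPM stimulated. Hepatocyte markers, listed because Gys2 and Pygl are the liver forms, summed to 1.14 to 3.9 CPM unstimulated and 0.578 to 2.39 CPM stimulated, with 1 of 5 at a mean of 1 CPM, Apoa1, and with Alb at 0 in 12 of 18 libraries. Neuron and glia markers, listed for the brain form Pygb, summed to 5.86 to 7.97 and 4.58 to 7.53 CPM. The part of these shifts in the values above was not tested.

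**Figure D3:**
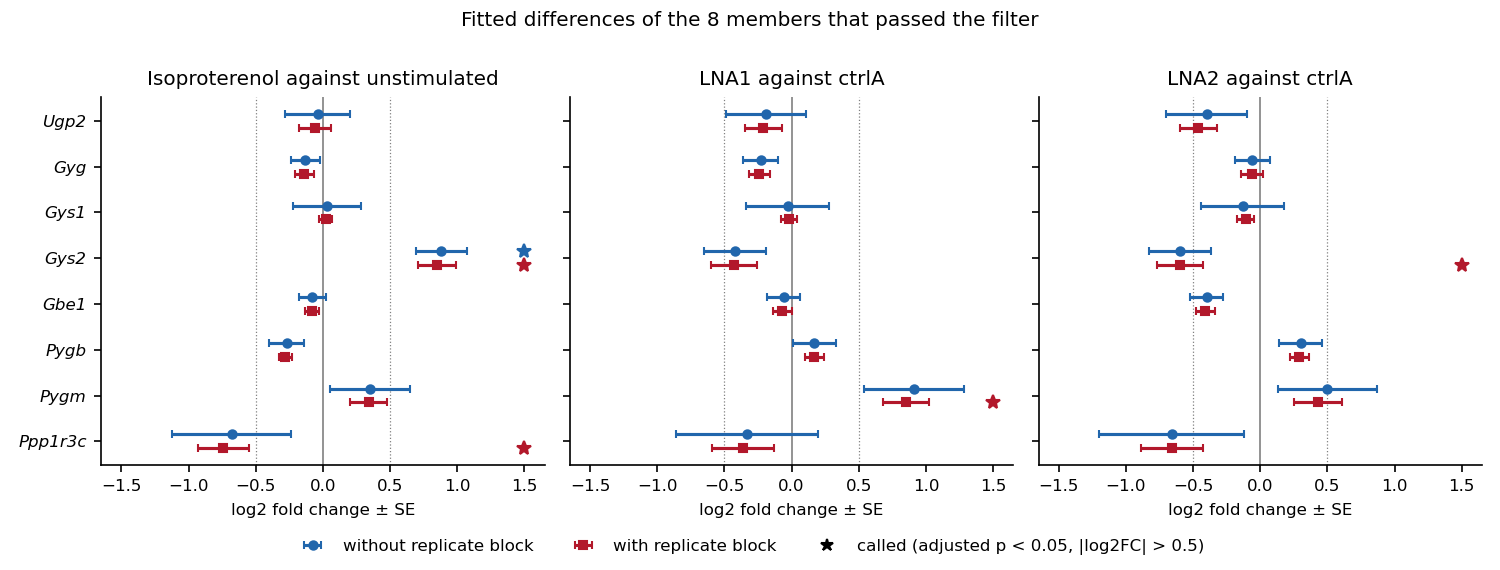
Fitted log2 fold changes ± SE of the 8 members that passed the filter, for isoproterenol (averaged over LNAs) and for LNA1 and LNA2 against ctrlA (averaged over stimulation), without the replicate block (circles) and with it (squares). Dotted lines mark the fold limit of 0.5 and stars the called values: Gys2 under isoproterenol is called in both fits, and Ppp1r3c under isoproterenol, Pygm with LNA1 and Gys2 with LNA2 only with the block.

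The second comparison asked what each Gm15551 LNA did to the set, averaged over stimulation. Without the block, 0 of 8 members were called with LNA1 and 0 of 8 with LNA2 in edgeR, and DESeq2 also called 0, while 1 and 2 members had an unadjusted edgeR p under 0.05. Over all genes 0.442% were called with LNA1 and 1.42% with LNA2. With the replicate block 1 member was called in each, Pygm higher with LNA1 and Gys2 lower with LNA2, against backgrounds of 2.43% (2.08% higher) and 5.53% (1.75% lower). Between LNA2 and LNA1 0 of 8 members were called in edgeR with or without the block and in DESeq2, with 1 member at an unadjusted edgeR p under 0.05, and the background was 0.923%, or 4.11% with the block. The members' median log2 difference was −0.13 with LNA1 and −0.26 with LNA2, beside −0.02 over all genes in both. Both comparisons use the same ctrlA libraries, so their values are given side by side and are not independent.

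Pygm, the muscle-type phosphorylase, was higher with LNA1 than with ctrlA in 6 of 6 pairs. The unstimulated ctrlA libraries had 1.25, 2.16 and 2.52 CPM in replicates 2, 3 and 4, and the LNA1 libraries 1.78, 3.99 and 4.87 CPM. After isoproterenol ctrlA had 1.82, 2.95 and 3.06 CPM, and LNA1 had 2.92, 4.43 and 8.01 CPM. The highest value of the gene was thus the stimulated LNA1 library of replicate 4, and replicate 2 was the lowest within every group. The mean was 2.29 ± 0.695 CPM with ctrlA and 4.33 ± 2.12 CPM with LNA1 (SD, n = 6 each), with overlapping ranges. The log2 difference of 0.91 ± 0.37 (SE, edgeR adjusted p = 0.666) was not called, and that of 0.85 ± 0.17 with the replicate block was (adjusted p = 0.00682). Without the libraries of replicate 2 it was 1.01 (adjusted p = 0.0723), and 0.98 with the block added (adjusted p = 0.031).

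With LNA2, Pygm had 1.98, 2.62 and 4.61 CPM unstimulated and 1.14, 4.24 and 4.53 CPM stimulated, a log2 difference from ctrlA of 0.5 ± 0.37 (SE, edgeR adjusted p = 0.792). LNA2 against LNA1 was −0.41, with a 95% confidence interval of −1.19 to 0.37, so a difference between the targeting LNAs was not resolved. As a share of all phosphorylase counts pooled per group, Pygm held 1.5% in unstimulated ctrlA, 2.45% in stimulated ctrlA, 2.28% and 4.38% with LNA1, and 2.08% and 2.44% with LNA2. Skeletal muscle markers were almost absent: 2 of 7, Acta1 and Mylpf, reached a mean of 1 CPM, and Myod1 and Myh1 were at 0 in 17 of 18 libraries. The summed muscle markers were 3.01 to 4.56 CPM with ctrlA, 3.22 to 5.23 with LNA1 and 2.62 to 5.65 with LNA2, and they were 2.62 to 3.96 CPM in the unstimulated and 3.72 to 5.65 CPM in the stimulated libraries. Their part in the values of Pygm was not tested.

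Gys2 was lower with LNA2 than with ctrlA in 6 of 6 pairs, at 2.45 ± 0.981 against 3.75 ± 1.87 CPM (SD, n = 6 each). In the unstimulated state the groups did not overlap, with 1.57 to 1.91 CPM against 2.45 to 2.61 CPM, while the stimulated ranges met. The log2 difference was −0.6 ± 0.23 (SE, edgeR adjusted p = 0.3), and −0.6 ± 0.17 with the replicate block (adjusted p = 0.0172). It fell back to an adjusted p of 0.124 when the libraries of replicate 2 were left out of the blocked fit (−0.52). LNA1 gave −0.42 ± 0.23 (adjusted p = 0.957, block −0.43, adjusted p = 0.126), lower in 5 of 6 pairs. Stimulated ctrlA replicate 3, at 7.32 CPM, weighed on both: without it the differences were −0.4 for LNA2 and −0.23 for LNA1. Summed macrophage markers were 8.21 to 12.8 CPM with ctrlA, 11.9 to 15.4 with LNA1 and 14 to 28.5 with LNA2 in the unstimulated libraries. In the stimulated libraries they were 12.2 to 24.7, 19.4 to 30.1 and 26.1 to 44.2 CPM. This sum is nearly all Cd68, the only 1 of the 5 with a mean of at least 1 CPM. Adgre1 was at 0 in 15 and Ptprc at 0 in 11 of 18 libraries, so the sum does not stand for macrophages in the cultures. Summed brown adipocyte markers overlapped, at 10200 to 22500 CPM with ctrlA and 8780 to 18900 CPM with LNA2. The part of these markers in the values of Gys2 and the other members was not tested.

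The branching enzyme Gbe1 was lower with LNA2 in 6 of 6 pairs. With ctrlA it stood at 276, 239 and 272 CPM unstimulated and 255, 258 and 285 CPM stimulated in replicates 2, 3 and 4. With LNA2 the values were 254, 192 and 207 CPM unstimulated and 197, 144 and 213 CPM stimulated, with 1 LNA2 library, unstimulated replicate 2, inside the ctrlA range. Means over 6 libraries were 264 ± 16.8 CPM under ctrlA against 201 ± 35.7 CPM under LNA2 (SD), and the log2 difference of −0.4 ± 0.12 (SE, edgeR adjusted p = 0.137) was not called. With the block it was −0.41 (adjusted p = 0.000453), past the p threshold but under the fold limit. With LNA1 the gene had 253 ± 27 CPM, a log2 difference of −0.06 with a 95% confidence interval of −0.32 to 0.19. The direct difference between LNA2 and LNA1 was −0.33 ± 0.12 (adjusted p = 0.307, block −0.34, adjusted p = 0.00271).

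The other members were not called with LNA1 or LNA2 in either fit. Pygb was 115 ± 20.8 CPM with ctrlA, 130 ± 29.6 with LNA1 and 141 ± 27.2 with LNA2 (SD, n = 6 each), higher with LNA2 in 6 of 6 pairs, with a log2 difference of 0.3 (edgeR adjusted p = 0.579, block 0.29, adjusted p = 0.00487). Ugp2 was lower with LNA2 in 6 of 6 pairs, at 94.6 ± 41.8 against 124 ± 30.9 CPM, with −0.4 (adjusted p = 0.793, block −0.46, adjusted p = 0.0325), and stimulated LNA2 replicate 3, at 33.9 CPM, was its lowest library by far. That library was also the lowest in Gbe1, and without it the Ugp2 difference was −0.21. Without stimulated LNA2 replicate 2 the Ugp2 difference was −0.62. Ppp1r3c with LNA2 had −0.66 ± 0.54 (SE, adjusted p = 0.828), which ran from −0.32 without unstimulated ctrlA replicate 2 to −1.09 without stimulated LNA2 replicate 2. Gys1 with LNA2 had −0.13 ± 0.31 (adjusted p = 0.982). Gyg was 54.8 ± 4.56 CPM with ctrlA, 46.9 ± 9.9 with LNA1 and 52.7 ± 6.05 with LNA2. Pygl had 18 counts with ctrlA and 8 with each targeting LNA, and exact two-sided permutation tests of its CPM within stimulation states gave p = 0.185 for LNA1 and p = 0.195 for LNA2 (n = 6 each, smallest possible 0.005, adjusted p = 0.292 for both over 3 comparisons).

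The third comparison asked whether the response to isoproterenol differed between ctrlA and the targeting LNAs. In edgeR 0 of 8 members had an adjusted interaction p under 0.05 for LNA1 or LNA2, and 0 had an unadjusted p under 0.05. Of all genes 0% were called, and 105 (0.702%, LNA1) and 116 (0.776%, LNA2) had a raw p under 0.05. With the replicate block 0% were called as well, and the shares with a raw p under 0.05 were 2.63% and 5.4%. DESeq2 called 0 and 2 genes, none a member. For Gys2 the interaction was −0.16 (95% confidence interval −1.14 to 0.81) with LNA1 and −0.12 (−1.1 to 0.86) with LNA2, intervals too wide to settle whether its response differed. For Ppp1r3c the interaction was −0.51 (−2.77 to 1.75) with LNA1 and −0.73 (−3.02 to 1.56) with LNA2. Single libraries moved the first from −1.76 without stimulated LNA1 replicate 2 to 0.12 without stimulated ctrlA replicate 2. They moved the second from −1.57 without stimulated LNA2 replicate 2 to −0.09 without stimulated ctrlA replicate 2. With the replicate block the interactions of Ppp1r3c with LNA1 and LNA2 were −0.7 ± 0.45 and −0.8 ± 0.46 (SE). Those of Gys2 were −0.12 ± 0.33 and −0.06 ± 0.34, and none was called. In the joint test of all 6 groups 0 of 8 members had an adjusted p under 0.001, with or without the block, against 0.455% and 8.93% of genes, and DESeq2 also called 0, while 1 member had an unadjusted edgeR p under 0.05 without the block. Gys2 came closest, with adjusted p = 0.0754, and 0.00127 with the block.

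The members differed in where their variation lay. For Gys1, 96.9% of the sum of squares of log2 CPM over the 18 libraries went with the replicate number, and 0.1% with isoproterenol. For Ppp1r3c, Ugp2, Pygm and Pygb the replicate number took 62.7%, 59.5%, 58.8% and 50.5%. Gys2 was the member in which isoproterenol took the largest share, 51.4%, and the LNA took 18.2%. Gbe1 was the member in which the LNA took the largest share, 52.4%, with 2.7% for isoproterenol. The interaction took 0.2 to 6.9%. These shares describe the libraries and are not tests.

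**Figure D4:**
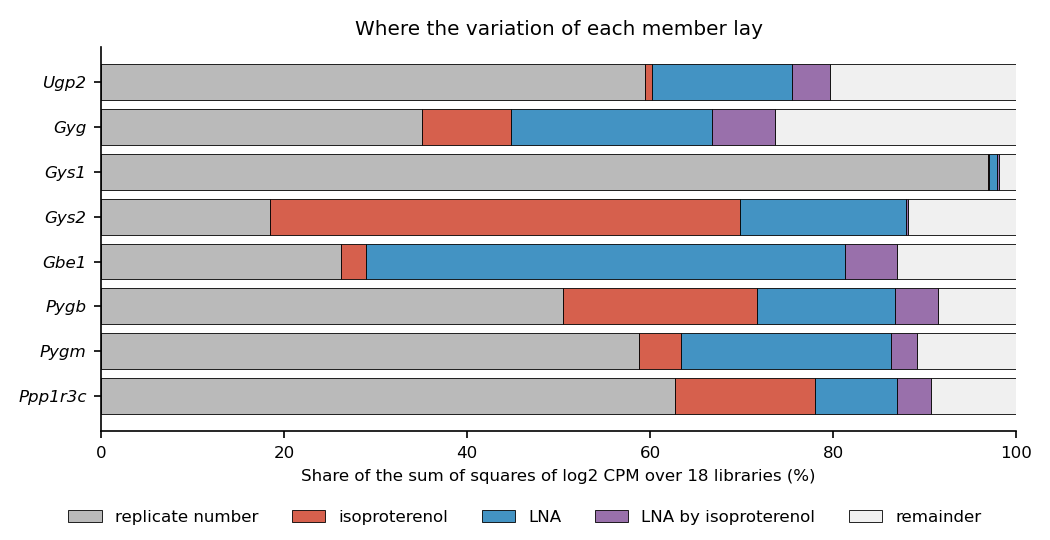
Share (%) of the sum of squares of log2 CPM over the 18 libraries that went with the replicate number, isoproterenol, the LNA, their interaction and the remainder, for the 8 members that passed the filter. The replicate number fills nearly the whole bar of Gys1, isoproterenol is the widest section of Gys2 and the LNA that of Gbe1.

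The pathway around these enzymes was read from 4 lists of 30 further genes, of which 24 passed the filter. Isoproterenol gave 0 called genes among the 24 without the block in edgeR, with a median log2 fold change of −0.04, and DESeq2 also called 0, while 6 had an unadjusted edgeR p under 0.05. LNA2 also gave 0 called by edgeR and by DESeq2, and 6 at an unadjusted edgeR p under 0.05. Over all genes tested, 3.2% were called for isoproterenol and 15% had an unadjusted p under 0.05. For LNA2 these shares were 1.42% and 10.6%. None of the 9 phosphatase 1 subunits, 6 of them tested, was called in any of the averaged comparisons by edgeR or DESeq2. The same held for the 7 kinases of synthase and phosphorylase, all tested. For isoproterenol 2 of the subunits and 2 of the kinases had an unadjusted edgeR p under 0.05, and for LNA2 1 and 3 did. The catalytic subunit Ppp1cc passed the p threshold under isoproterenol but not the fold limit (0.28, adjusted p = 0.0412). Ppp1r3b, another subunit that targets the phosphatase to glycogen, had −0.47 (adjusted p = 0.322, block adjusted p = 6.26e-06), also under the limit. Ppp1r3a, the muscle targeting subunit, had 0 counts in all libraries.

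With the replicate block 3 pathway genes were called for isoproterenol or LNA2, which are named because they are few. They were 1 of 24 for isoproterenol, beside 7% of all genes in that fit, and 2 of 24 for LNA2, beside 5.53%, so both shares lie near the background. Epm2a, the laforin phosphatase of glycogen quality control, was lower after isoproterenol (2.65 ± 0.566 and 1.78 ± 0.518 CPM, SD, n = 9 each) in 8 of 9 pairs, with −0.59 (edgeR adjusted p = 0.116, block −0.6, adjusted p = 0.0136). With LNA1, to which it holds the 12-base stretch, its log2 difference from ctrlA was −0.29 (95% confidence interval −0.8 to 0.22, adjusted p = 1, block adjusted p = 0.409). Stbd1, which tethers glycogen to membranes, was lower with LNA2 in 6 of 6 pairs (6.33 ± 2.44 against 8.99 ± 2.75 CPM with ctrlA, n = 6 each), with −0.54 (adjusted p = 0.467, block −0.54, adjusted p = 0.00321). It was also lower with LNA1 in 6 of 6 pairs, at −0.26 (block −0.27, adjusted p = 0.165). With isoproterenol it was lower in 8 of 9 pairs, at −0.49 (block −0.46, adjusted p = 0.00136), under the fold limit. Hk1, a hexokinase, was higher with LNA2 in 6 of 6 pairs (220 ± 101 against 143 ± 57.2 CPM), with 0.61 (adjusted p = 0.694, block 0.6, adjusted p = 8.06e-05). Hk1 was also higher with isoproterenol in 9 of 9 pairs, at 0.46 (block adjusted p = 5.98e-05), under the fold limit. With LNA1 it was higher than with ctrlA in 6 of 6 pairs, at 0.4 (block 0.37, adjusted p = 0.00858), also under the limit. LNA2 against LNA1 was 0.21 (block 0.23, adjusted p = 0.0583).

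For the 3 members with the widest range of group means, the genes most alike over the 18 libraries were sought among 13157 genes, by Pearson's r of log2 CPM after the mean of each replicate number was removed. For Gys2 these were Gas5 (r = 0.933), Ephx2 (0.921), Cyb5a (0.917), Rpl7 (0.908) and Scp2 (0.908). Without removal of the replicate means the same r lay between −0.055 and 0.34, so the likeness holds among libraries within a replicate number only. For Ppp1r3c they included Nat2 (0.928), Cbr4 (0.923), Adk (0.898) and Bcap31 (0.891). For Pygm they were Zfp949 (0.895), Zfp608 (0.865), B3galt4 (0.861), Col9a3 (0.854) and Phf21a (0.846). Without removal of the replicate means the r of these 5 with Pygm ran from −0.011 (Zfp949) to 0.925 (Phf21a). Among the members themselves, Gbe1 and Ugp2 were the most alike (r = 0.85) and Gys2 and Pygb the most opposed (r = −0.78). Without removal of the replicate means these were 0.77 and −0.21, and Pygm and Ppp1r3c were then the most opposed (r = −0.8). The points share libraries, stimulation and LNA, and these values are descriptions.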

How the data were processed

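Polyadenylated RNA of 18 samples was sequenced as paired reads. The authors used cutadapt for trimming and salmon for quantification against the Gencode M22 transcripts, alone or combined with RNAcentral (which of these made this table was not stated; GRCm38; program versions are not given in the sources used here), and deposited expected counts (estimated fragments per gene, given as whole numbers, unscaled). Fragments shared by genes are thus divided by estimation, and strand use was not stated. Counts were fitted with edgeR 4.0.16 (R 4.3.3), 1 term per group over all libraries, TMM scaling, filterByExpr (minimum count 10, total 15), which left 14949 genes, quasi-likelihood tests and Benjamini-Hochberg adjustment. Calls needed adjusted p under 0.05 and an absolute log2 fold change above 0.5 (interactions: p alone; joint test: 0.001). CPM are TMM-scaled.

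Pairing came from the replicate numbers: same-numbered libraries of different groups deviated together in 45 of 45 pairs of libraries (r from 0.24 to 0.722). These pairs share libraries with one another. A fit with the number as a block is therefore given where it changes a call. DESeq2 1.42.0, RLE scaling, no filter, leaving out each library and leaving out number 2 were the other alternatives, and the block without number 2 was added after the data were seen. Within groups, 18 of 18 library pairs differed by more than sampling noise (chi-square per degree of freedom from 4.32 to 176.98). Floors cover counting error only, whereas confidence intervals come from the fit and include the spread between libraries.

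All 9 members are named, with the value in each library where a result turns on it. Pathway genes are named when called, or where few. Some results of the pathway and likeness lists are not reported here. The members, lists and rules were chosen with earlier results of these data known. Coordinates, transcripts and coding sequences come from GENCODE M21 of GRCm38, 1 release older than that of the authors and holding 99.53% of the listed genes, aligned with Biopython 1.88.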

Additional observations from a re-analysis of the deposited data

How the results depend on the processing

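The call of Gys2 under isoproterenol held under every alternative run. The number of members called under isoproterenol averaged over LNAs was 1 and became 2 with the replicate block, 2 without the 6 libraries of number 2, and 2 with both, each time through Ppp1r3c. With the replicate block the number went from 0 to 1 for isoproterenol with ctrlA, for isoproterenol with LNA2 (Gys2 in both), for LNA1 (Pygm, also 1 with the block and without number 2) and for LNA2 (Gys2). Other member counts were unchanged with RLE scaling, DESeq2 and no filter. Leaving out single libraries gave 1 to 1 members for averaged isoproterenol and 0 to 0 for every other comparison.

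The number of all genes called depended more on the block: 479 became 1046 for averaged isoproterenol, 66 became 364 for LNA1, 213 became 826 for LNA2 and 138 became 615 for LNA2 against LNA1, while DESeq2 gave 629, 127, 325 and 227. Without the libraries of number 2 they were 727, 180, 738 and 443. Leaving out single libraries gave 394 to 477, 32 to 82, 113 to 262 and 73 to 153. The cause was not tested. Counts per library were lowest for Pygl, at 0 to 6, and then for Ppp1r3c, at 7 to 91. Pygm, at 12 to 101, and Gys2, at 17 to 114, were close to Ppp1r3c.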
